A study of Mus musculus and other sequences with 2 samples.

Results

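The let-7 family and miR-98 were examined in spent culture media of murine blastocysts. Assays were taken if their name on the array began with mmu-let-7, or was mmu-miR-98, and did not end in #, the mark of the minor arm of a hairpin. The rule used names only, and it found 9 of the 750 miRNA assays, named mmu-let-7a, mmu-let-7b, mmu-let-7c, mmu-let-7d, mmu-let-7e, mmu-let-7f, mmu-let-7g, mmu-let-7i and mmu-miR-98, all on card A and written here without the mouse prefix. In the study, 25 CD1 embryos were cultured in an 8 μL microdroplet of BSA-free KSOM with 0.1% of a synthetic polymer (polyvinylacetate in the labels, PVA in the methods) from 99 to 116 h post-hCG, under 5% O2 and 5% CO2. The embryos came from superovulated CD1 females, aged 3 weeks in the labels and from that age to a week older in the methods, mated with CD1 males, were grown in culture from the zygote, and are described as blastocysts in the labels and as compacted or cavitating morulae at 99 h in the methods. A blank microdroplet of the same media without embryos was cultured for the same 17 h. From each, 6 μL was lysed, reverse transcribed, pre-amplified for 12 cycles and run for 40 cycles on the paired cards (A, B) of the TaqMan Rodent MicroRNA set. Each condition had 1 sample and each miRNA assay 1 well, so that no test between the media was possible and the miRNA values carry no replicate error. The embryos were pooled in 1 microdroplet, and release by a few embryos or by all of them cannot be told apart.

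The let-7 miRNAs are a family of short regulatory RNAs known for rising as cells differentiate and for repressing growth and stem cell genes such as Lin28a, Hmga2 and Myc. In pluripotent cells the RNA-binding protein LIN28 blocks the processing of most let-7 precursors, and mature let-7 is kept low there, whereas the miR-290 family is abundant in mouse embryonic stem cells. Each hairpin precursor gives a 5′ arm, which in let-7 is the major, active arm, and a 3′ arm that is mostly degraded.

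All 9 assays were matched by name to a mature 5′ arm of RefSeq. They are printed 5′ to 3′ to show how little separates the assays that gave a signal from those that did not, with the seed (bases 2 to 8, which pair with target mRNAs) in capitals. Every member carries the same seed, GAGGUAG, and 14 of the 22 positions are the same in all 9.
let-7a: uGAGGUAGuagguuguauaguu
let-7b: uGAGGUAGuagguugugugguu
let-7c: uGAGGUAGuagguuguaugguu
let-7d: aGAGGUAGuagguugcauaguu
let-7e: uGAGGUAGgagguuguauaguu
let-7f: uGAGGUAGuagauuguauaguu
let-7g: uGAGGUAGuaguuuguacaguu
let-7i: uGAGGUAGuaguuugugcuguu
miR-98: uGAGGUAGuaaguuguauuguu

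Counted from 1 at the 5′ end and set against let-7a, let-7c differs by A19G, let-7e by U9G and let-7f by G12A. For let-7b the changes are A17G and A19G, so that it differs from let-7c by A17G alone. The other members carry U1A and U16C (let-7d), G12U and U18C (let-7g), G11A and A19U (miR-98), and G12U, A17G, U18C and A19U (let-7i). Over the 36 pairs of members, the number of mismatched bases ranged from 1 to 6.

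**Figure D1:**
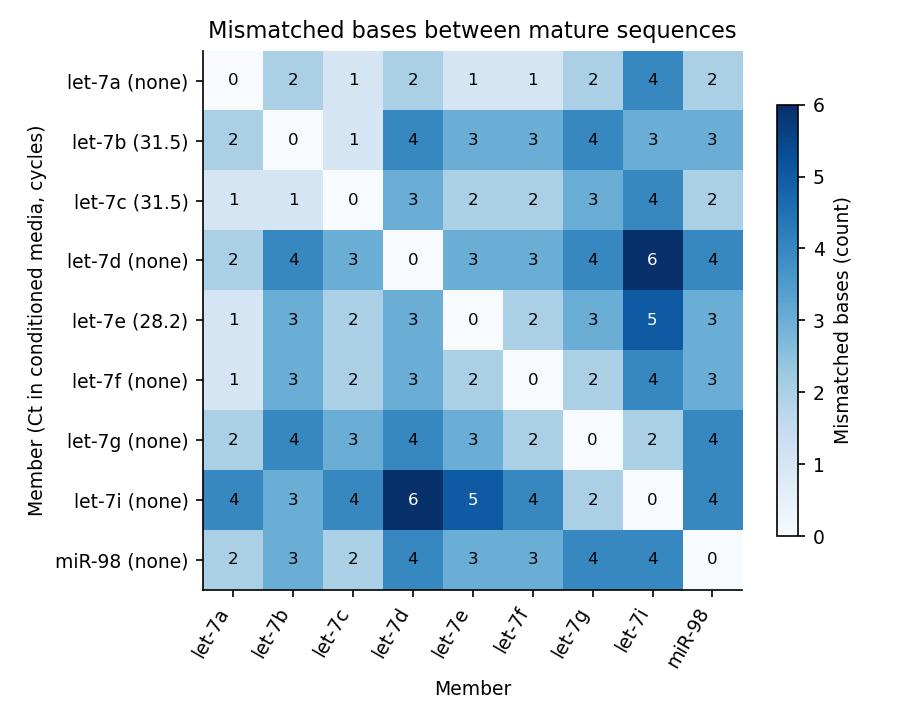
Number of mismatched bases between the mature sequences of each pair of the 9 members, with the Ct in conditioned media (cycles, 1 well each) beside each name and none for an undetermined Ct. The 4 pairs that differ by 1 base are let-7a with let-7c, let-7e and let-7f, and let-7b with let-7c; in the first 2 of these the assay of let-7a had no Ct while its partner did.

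In conditioned media, let-7b, let-7c and let-7e were detected, and let-7a, let-7d, let-7f, let-7g, let-7i and miR-98 were not. The Ct is the cycle at which the fluorescence of a well crosses a threshold, so that more template gives a lower value, and a well without a Ct by the end of the run is undetermined. The Ct was 31.5 for let-7b, 31.5 for let-7c and 28.2 for let-7e. In blank media, all 9 were undetermined. A Ct below 35 in conditioned media was thus found for 3 of 9 members, beside 37.3% of all 750 miRNA assays, and in blank media for 0 of 9, beside 29.1%. The first share lies near that of the whole array. Detection in conditioned media only applied to the same 3 of 9, beside 13.9% of all assays, and the other 6 of 9 were undetermined in both media, beside 52.3%. Among the 330 mouse major-arm assays of card A, the same shares were 42.1% in conditioned media, 34.5% in blank media, 15.2% in conditioned media only and 45.5% undetermined in both. The reverse, a Ct below 35 in blank media only, was found for 42 of the 750 assays, 25 of the 330 and 0 of the 9 members. A call in 1 medium alone thus also arose in the medium without embryos. These shares are descriptions of 1 sample of each kind, and the let-7 share was not tested against them. The study also required a minimum change in fluorescence (ΔRn), which was not applied here, so that let-7b, let-7c, let-7e and the other assays counted as detected need not meet it.

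**Figure D2:**
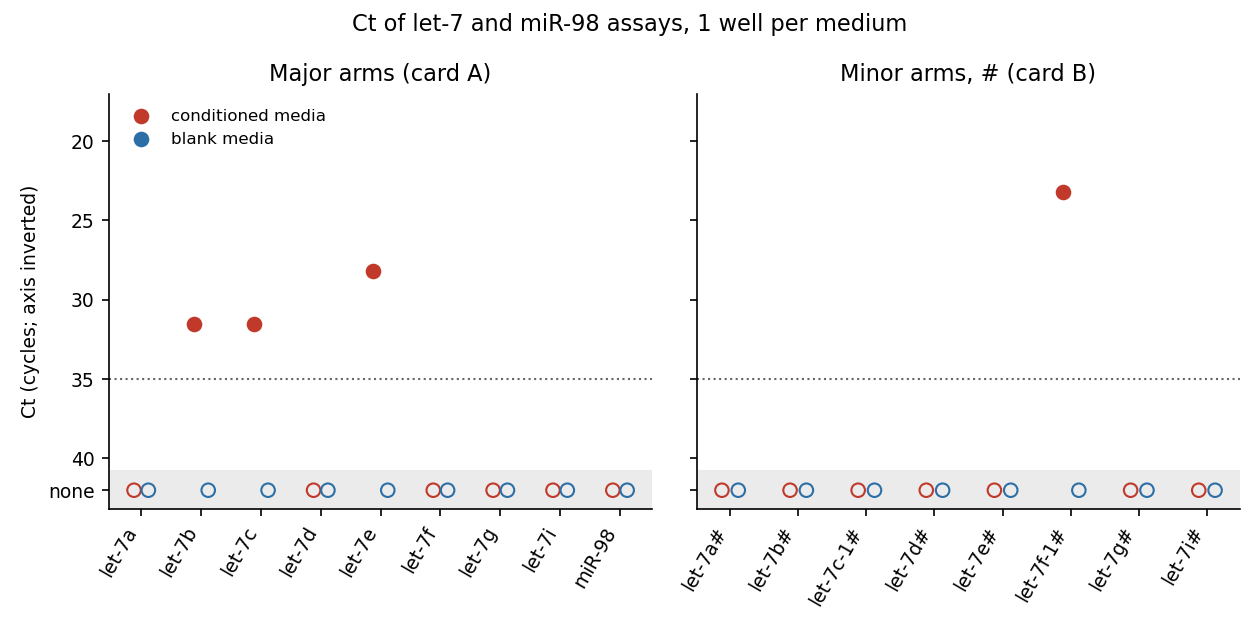
Ct in cycles (inverted axis, so that more template is higher) of the 9 major-arm assays and of the 8 minor-arm assays of let-7 in conditioned media (red) and blank media (blue), 1 well per point; open circles in the grey band are wells with no Ct and the dotted line is the limit of 35. In conditioned media let-7b, let-7c, let-7e and let-7f-1# have a Ct, between 23.2 and 31.5, and every blank well is without one.

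The distance between the media could be given only as a bound, because no member had a Ct in both. With the undetermined blank wells set to the 40 cycles of the run, the Ct of let-7e was earlier in conditioned media by at least 11.8 cycles, that of let-7c by at least 8.49 and that of let-7b by at least 8.46. These bounds, and those below, assume that no blank well failed, which 1 well per assay cannot show. The small nuclear RNA U6, a control in 4 wells of card A, was itself earlier in conditioned media, with a mean Ct of 20.9 (SD 0.68, 4 wells) against 25.0 (SD 3.22, 4 wells), a difference of -4.08 cycles. Taken relative to U6, which was not planned in advance, the bounds became -7.74 cycles for let-7e, -4.41 for let-7c and -4.37 for let-7b. Of the blank U6 wells, 1 stood apart at 20.2. Without the outlying well of each medium, picked from the values and also not planned, the bounds were -6.48, -3.15 and -3.11 cycles. All 3 members therefore remained earlier in conditioned media on each of these scales.

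Among themselves, the 3 detected members fell into a pair and a single assay. The wells of let-7b and let-7c differed by 0.03 cycles, less than the SD of U6 wells on that card in conditioned media with its outlying well (0.68) and without it (0.09, 3 wells). The well of let-7e was 3.33 cycles earlier than that of let-7c and 3.37 earlier than that of let-7b, which is more than either SD. U6 wells share 1 assay, whereas Ct values of different assays also depend on the efficiency of each. For 6 of the 26 names with 2 assays on the array, both were detected in conditioned media, and the gap between their Ct values spanned 1.25 to 7.42 cycles (median 3.74). The 3.33 cycles between let-7e and let-7c lie within that range, so that the order of let-7e before the other members is not distinguishable from a difference between assays. For miR-292-3p and miR-223 at least, the assays of 1 name were on different cards, whereas let-7e and let-7c were both on card A. The range may thus also hold differences between cards, which were not separated.

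Calls of detection varied between assays as well. Of the same 26 names, 10 had exactly 1 assay detected in conditioned media and 10 had neither. A member without a Ct was therefore not detectable in its single well, which leaves its amount below an unknown limit and does not show that it was absent.

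Ordered from the lowest Ct upwards, among the 280 miRNA assays detected with embryos let-7e ranked 190, let-7c 239 and let-7b 240. Their median Ct was 31.5, later than the 25.5 of all detected assays. Among the 104 assays detected in conditioned media only, whose median Ct was 28.4, let-7e ranked 51, let-7c 77 and let-7b 78. On card A alone they ranked 95, 130 and 131 of 149, and among mouse major arms 155, 191 and 192 of 227. Of the detected assays, 44 of 280 in conditioned media and 48 of 218 in blank media had a Ct below 15, down to 4.46 and 4.37, and these are counted in the shares of the whole array. Without every assay below 15 in either medium, let-7e ranked 133, let-7c 181 and let-7b 182 of 220. The let-7 signals in conditioned media were thus all in the later part of the detected range. Among the assays seen only with embryos, let-7e was near the middle and let-7b and let-7c were later.

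Members 1 base apart were not always detected together. Of the 4 pairs of members that differ by 1 base, let-7b and let-7c both had a Ct, and let-7a and let-7f both had none. In the other pairs, let-7a had none while let-7c and let-7e, each 1 base away, had a Ct of 31.5 and 28.2. The last 6 bases, AUAGUU, are shared by let-7a, let-7d, let-7e and let-7f, and of these 4 assays only let-7e had a Ct. The stem-loop primers of such assays copy a miRNA from its 3′ end, and how far each assay also reads its near relatives was not tested here.

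The mature sequences come from 12 hairpin genes in the mouse annotation (GRCm38.p6), several of which lie in clusters with other let-7 genes or with the miR-99/100 and miR-125 families. Mature let-7a, let-7c and let-7f are each made by more than 1 gene, so that the gene behind their assays cannot be told apart. The sequence of let-7b is at chr15:85707325-85707346 on the + strand, and a copy of let-7c, from Mirlet7c-2, is at chr15:85706616-85706637, with 621 bases between the hairpins. Both lie within the bounds of the long non-coding RNA gene Lncppara. The other copy of let-7c, from Mirlet7c-1, is at chr16:77599672-77599693, 656 bases from Mir99a. The sequence of let-7e is at chr17:17830366-17830387 on the + strand, within the bounds of the protein-coding gene Spaca6, and its hairpin is 367 bases from Mir125a. Whether these positions are exonic or intronic is not given in the table used here.

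The assays of the cluster partners were detected beside the let-7 member in some clusters and not in others. On chromosome 17, miR-125a-5p, a miRNA that is known to target Lin28a, crossed the threshold at 28.1 cycles with embryos and was undetermined without them. It was 0.11 cycles from let-7e, but the Ct of different assays cannot be read as equal amounts, given the gaps between assays of the same name. The remaining member of that cluster, miR-99b, was undetermined in both media. Its minor arm, miR-99b#, looked up after these values had been seen, had Ct values of 21.2 (conditioned) and 24.3 (blank). On chromosome 16, miR-99a had a Ct of 32.8 in conditioned media only, 1.3 cycles later than let-7c. The assay of miR-125b, made by genes near let-7c-1 and let-7a-2, had Ct values of 32.1 (conditioned) and 39.2 (blank). On chromosome 9, miR-100 and let-7a were undetermined in both media. In all, 3 of the 5 partners were below 35 cycles with embryos and none of the 5 without them. Among the 330 mouse major-arm assays of card A, these shares were 42.1% with embryos and 34.5% without. The partners are only 5 assays and were not tested against these shares. miR-125a-5p does not resemble let-7e in sequence, as its mature form shows, again with the seed in capitals.
miR-125a-5p: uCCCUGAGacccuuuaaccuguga
let-7e: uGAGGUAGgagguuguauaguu

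**Figure D3:**
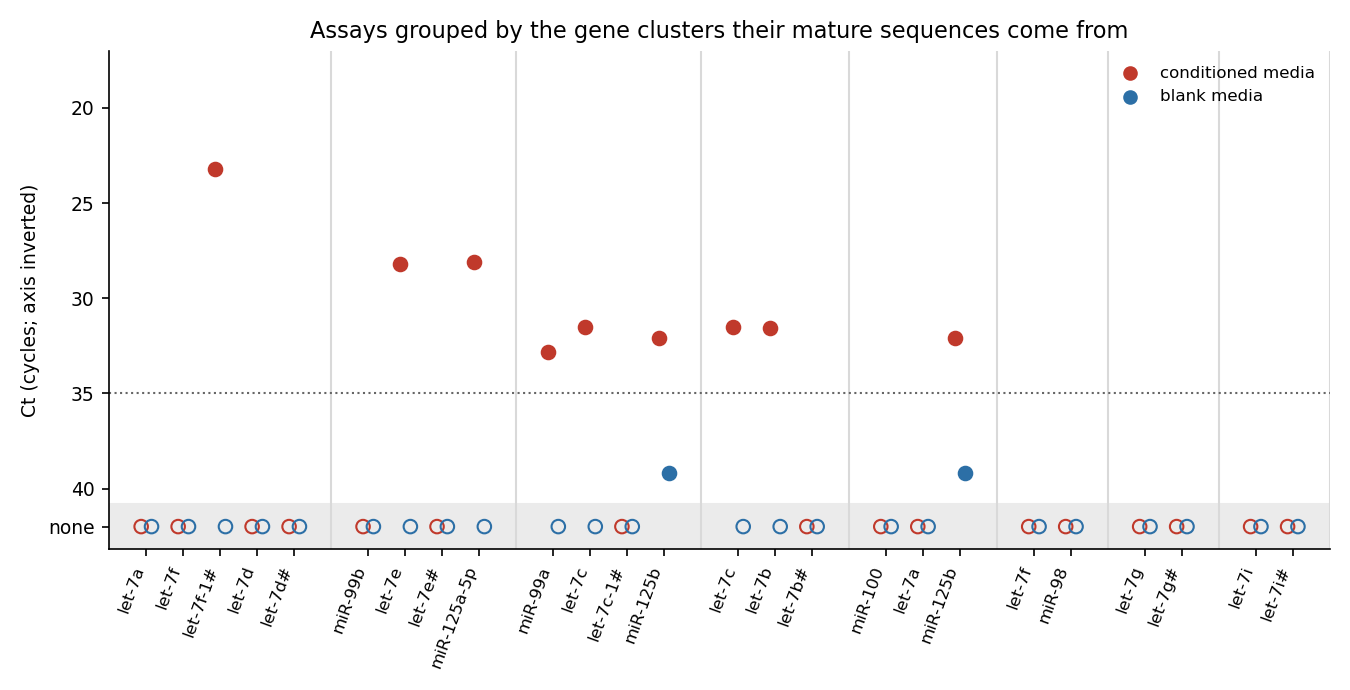
Ct in cycles (inverted axis) in conditioned media (red) and blank media (blue) of assays grouped, between grey lines, by the gene clusters of their mature sequences, 1 well per point, with open circles in the grey band for no Ct; let-7a, let-7c, let-7f and miR-125b appear in 2 groups each because more than 1 gene makes them. The clusters of let-7e and of let-7b and let-7c hold Ct values between 28.1 and 32.8 in conditioned media, and the groups of let-7f-2 with miR-98, of let-7g and of let-7i hold none.

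The lowest Ct of any let-7 assay came from a minor arm that the rule leaves out. Of the 8 minor-arm assays of let-7, all on card B, let-7f-1# reached the threshold at 23.2 cycles with embryos and never did without them. Its bound, with the blank well set to 40, was -16.8 cycles, and -9.69 relative to U6 of that card. The other 7 were undetermined in both media. Detection of 1 of 8 (12.5%) stood beside 27.0% of all 122 minor-arm assays in conditioned media and 14.8% in conditioned media only. The Ct of let-7f-1# was 4.95 cycles earlier than that of let-7e, on the other card, within the range seen between assays of the same name. It ranked 111 among the 280 assays detected in conditioned media and 26 among the 104 detected in conditioned media only. On card B alone it ranked 67 of 131, near the middle. Its Ct was also close to the median of 23.2 of the 33 minor-arm assays detected in conditioned media.

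The major arm of the same hairpin, let-7f, was undetermined in both media. Its hairpin is at chr13:48537829-48537917 on the - strand, 261 bases from Mirlet7a-1 and 1714 from Mirlet7d, and both of those neighbours' major arms were undetermined as well. The hairpin is printed with its 5′ arm (let-7f) and its 3′ arm (let-7f-1#) in capitals, followed by the 3′ arms of let-7f-1 and let-7b with their seeds in capitals, since these share the seed UAUACAA and the assay of let-7b# had no Ct.
Mirlet7f-1: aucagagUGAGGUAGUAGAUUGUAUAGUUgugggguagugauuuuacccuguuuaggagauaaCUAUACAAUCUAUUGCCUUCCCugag
let-7f-1#: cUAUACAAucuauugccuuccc
let-7b#: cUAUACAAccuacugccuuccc

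No let-7 hairpin had both of its arms detected. In the 8 pairs of a major and a minor arm, the major arm alone was detected in conditioned media for let-7b, let-7c-1 and let-7e, the minor arm alone for let-7f-1, and neither arm for 4. Across the 88 mouse pairs of the array, both arms were detected in 17, the major arm alone in 33, the minor arm alone in 7 (7.95%) and neither in 31. These are pairs of assays, and some major-arm wells, such as that of miR-30c, count in more than 1 pair. miR-376a counts with each of its minor-arm assays, of which 1 was undetermined and 1 had a Ct of 13.1. In 3 of the 88, with let-7f-1 among them, the minor arm was detected alone and had no Ct below 35 in blank media. The others of these 3 were miR-183, whose minor arm had a Ct of 32.3, and miR-93, whose minor arm had 28.9 and major arm 38.2.

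**Figure D4:**
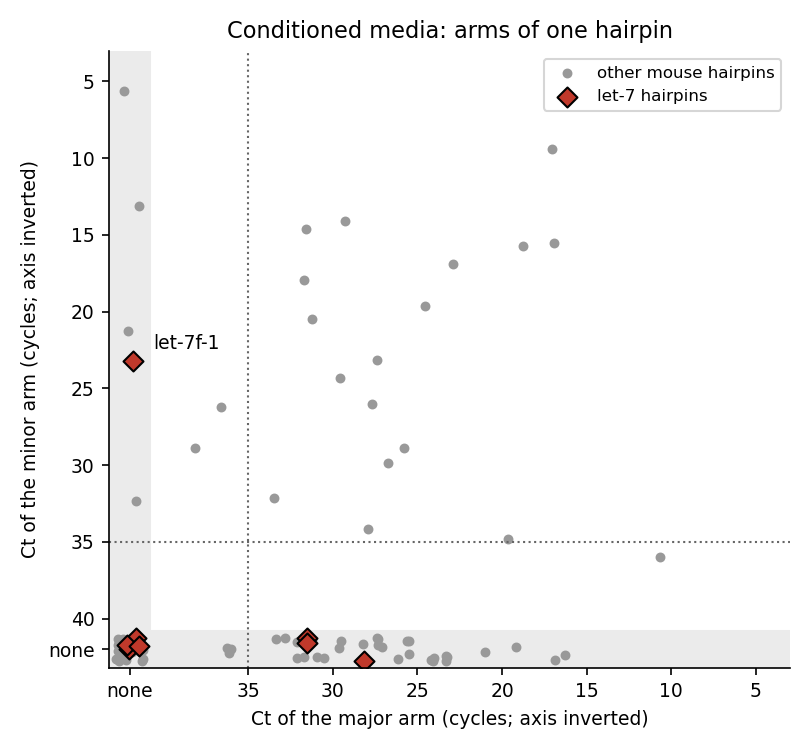
Ct in conditioned media of the major arm (x axis) and the minor arm (y axis) for 88 mouse pairs of arm assays, in cycles on inverted axes. Each assay had 1 well, dotted lines are at 35, and grey bands, with random offset, hold arms with no Ct. The 8 let-7 hairpins (red) all lie in a grey band, and let-7f-1, with a minor-arm Ct of 23.2, is the only one of them with a minor-arm Ct.

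The miR-290 family, known for its abundance in pluripotent cells, was read with more assays than let-7, minor arms and a repeated miR-292-3p assay among them, so that the sets are unlike and no test was possible. Of the 17 mouse assays named miR-290 to miR-295, 12 were detected with embryos, from 19.6 for miR-292-3p to 34.8 for miR-295#, with a median of 25.6, against 3 of 9 and 31.5 for let-7. Gaps between single assays of the same name do not measure the spread of medians, so the gap between these medians cannot be judged from them. None of the 17 was detected without embryos, where miR-294 had a Ct of 37.6. The seed of miR-295, in capitals, differs from that of let-7.
miR-295-3p: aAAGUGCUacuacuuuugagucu
The miR-30 family, broadly expressed across tissues, gave another pattern. All 5 of its major arms had a Ct below 35 in both media, from 25.5 for miR-30c to 29.6 for miR-30d in conditioned media and from 26.6 to 32.4 in blank media. Conditioned minus blank, the 5 differences lay between -2.86 and 0.22 cycles. let-7 and the miR-290 family thus had no Ct below 35 without embryos, while the miR-30 family amplified in every blank well.

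**Figure D5:**
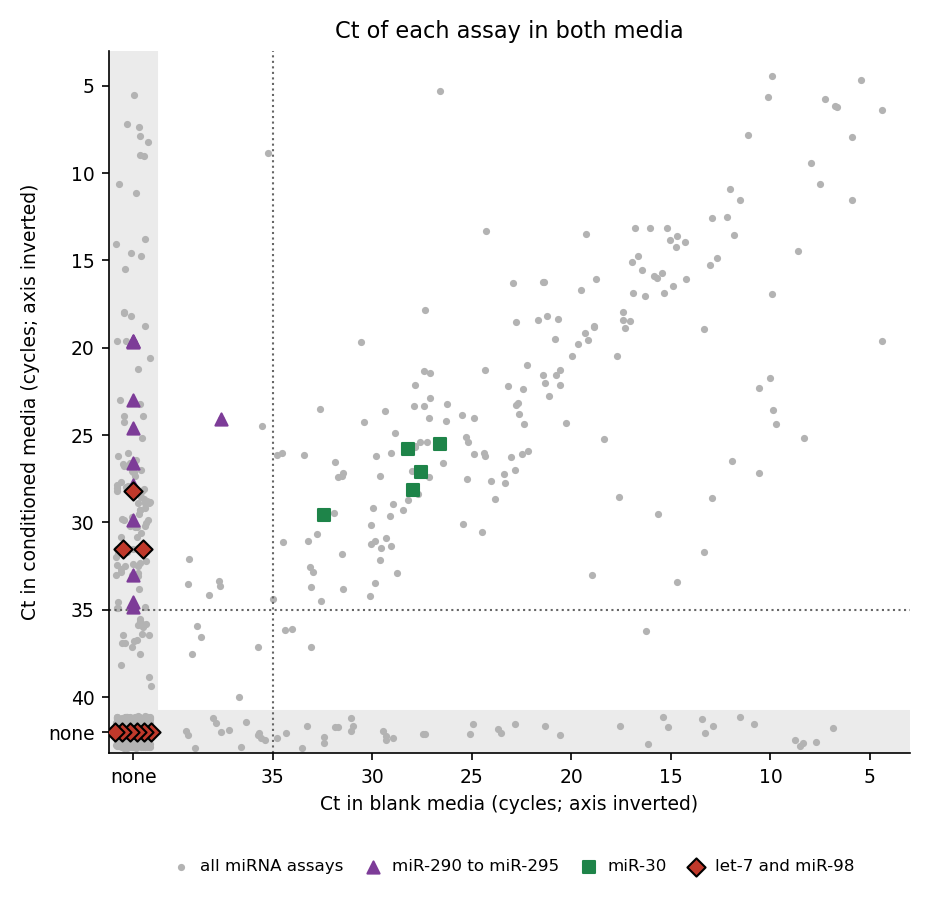
Ct of each of the 750 miRNA assays (grey) in blank media (x axis) and conditioned media (y axis), in cycles on inverted axes, with dotted lines at 35 and grey bands for wells with no Ct, where points are spread for visibility. The let-7 and miR-98 assays (red) all lie in the band of no Ct in blank media, 3 with a Ct in conditioned media and 6 at the lower left without one; the 5 miR-30 assays (green) have a Ct in both.

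The assays nearest to each detected member, among the 47 other mouse major-arm assays of card A detected in conditioned media only, were chosen by distance in Ct in conditioned media. For let-7e they were miR-19a (0.04 cycles away), miR-125a-5p (0.11) and miR-465b-5p (0.12). For let-7b they were miR-133a (0.05), miR-365 (0.09) and miR-146b (0.16), and for let-7c the same 3, at 0.08 cycles for miR-133a, 0.05 for miR-365 and 0.19 for miR-146b. Having no Ct below 35 in blank media was a condition of that set, so it is not a result for these assays.

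Markers of the embryo and of other possible sources were read in the same 2 samples, each assay in its own well and some on card B. All 6 assays of the embryonic markers miR-291a-3p, miR-292-3p, miR-293, miR-294 and miR-295 were detected in conditioned media only. These markers all belong to the miR-290 family described above, so they are not a separate observation. Of the 17 assays of that family, 5 were undetermined in both media. Of the sperm markers, miR-34c was at 27.9 with embryos and undetermined without, and miR-34b-3p had 26.1 and 34.8 in conditioned and blank media. Of 5 blood assays, miR-451 and miR-144 were undetermined, and both assays of miR-223 and that of miR-486 had a Ct below 35 in both media. The hepatocyte marker miR-122 and the neuronal marker miR-9 were undetermined in both. Of the muscle markers, miR-1 was undetermined in both, miR-133a had a Ct of 31.6 in conditioned media only, and miR-206 had 22.2 and 20.6. The listed names miR-449a and miR-124 matched no assay name exactly and have no value here. The part of sperm or of other cells in the let-7 signal was not tested.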

How the data were processed

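Per-well Ct values, exported by the authors from QuantStudio software, were deposited without normalization. The Ct is a cycle number on an inverted log2 scale, and wells without one were deposited as undetermined. A second deposited table, of fold changes (a ratio between media), was not used. The study's further limit on the fluorescence change was not applied here, so detection rests on a Ct below 35 alone and may include wells that the study did not count. Of 768 wells, 18 controls were left out of counts. With 1 sample per condition no test was run. The error between wells was taken from U6 and that between assays from names with 2 assays.

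The members, lists and comparison families were chosen with earlier results of these data known. The rule found 9 assays, 2 more (let-7a and let-7f) than a list of 7 names that came with it. The named sequences are the members, the minor arms of let-7, 5 cluster partners, the extremes of the comparison families, controls and markers. The rule for the sequences nearest in pattern needed a Ct in both media, which no member had, so nearness in conditioned media was used in its place, a choice made after the values were seen. Sequences and gene positions are from RefSeq tables of GRCm38.p6, where 9 of 9 members and 7 of 8 minor arms matched. The deposited Ct values name no genome build.

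Alternatives were other Ct limits, an undetermined Ct required in blank media, U6 or the card median as reference, and other sets of ranked assays. Classes and ranks were tested on simulated data. The tools were numpy 2.4.6, pandas 2.3.3 and matplotlib 3.10.9 under Python 3.11.15.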

Additional observations from a re-analysis of the deposited data

How the results depend on the processing

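With a Ct limit of 32 or 38, or any determined Ct, the members detected numbered 3 with embryos, 0 without and 3 in conditioned media only, also when an undetermined Ct was required in blank media. The same counts came from leaving out let-7a and let-7f, an alternative chosen after seeing the data. A limit of 30, also chosen after seeing the data, left 1 member, let-7e, detected in conditioned media and in conditioned media only. Of all 750 miRNA assays, 307 had any determined Ct with embryos and 244 without. The shares of all assays at limits of 30, 32 and 38 were not counted. How the family stands beside the array at those limits is therefore not known. The median Ct of the detected members, 31.5, was 29.8 without let-7b, 29.9 without let-7c and 31.5 without let-7e. Centred on the card median, the bounds were -8.34 (let-7b), -8.37 (let-7c) and -11.7 (let-7e). This centring, like the bounds relative to U6, was not planned in advance. Differences between media, and their median, could not be given without a bound because no member had a Ct in both. The cards give 1 well per assay, and an undetermined Ct sets no amount. No paired analysis was possible because each condition has 1 sample.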
